A study of Mus musculus with 10 samples.

Results

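Tissue labelled medulloblastoma from AtohI-Cre Kmt2dfl/+ Ptch+/- mice, the AKP group, was set against cerebellum from Ptch+/- mice, the Ptch group. Both were measured by sequencing of polyadenylated RNA from whole tissue. The members are 7 of the 10 libraries of the series, the 3 labelled AKP and the 4 labelled Ptch, and were chosen by label alone. Of 39769 gene symbols listed, the 15508 with at least 10 counts in 3 or more of these 7 libraries were tested. By label, Ptch 1, Ptch 2 and AKP 3 came from mice of 4 months, and Ptch 3, Ptch 4, AKP 1 and AKP 2 from mice of 2 months. Every mouse carried Ptch+/-, so none of the 7 libraries has an intact pair of Ptch alleles. The labels call the Ptch libraries controls and the AKP libraries KO, although the AKP genotype has 1 floxed and 1 intact Kmt2d copy. Cre, the floxed Kmt2d copy and the tissue label (medulloblastoma against cerebellum) change together between the groups and cannot be told apart. Nothing in the labels states that each library is a different animal, and the p-values then reflect only the spread between libraries, which may be technical. In whole tissue, fewer cells of a type and less RNA per cell cannot be told apart.

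Sonic hedgehog (SHH) is a growth signal that Purkinje cells send to granule neuron precursors of the young cerebellum. Its receptor, encoded by Ptch1, holds the pathway off until the ligand binds, and mice with 1 lost Ptch1 copy can develop SHH medulloblastoma from these precursors. Atoh1 is the transcription factor that marks the precursors, and a Cre driven from its promoter recombines floxed genes in them and in other cells of the rhombic lip lineage, while most other cells of the tissue keep both Kmt2d copies. Kmt2d encodes a methyltransferase that places the monomethyl mark of active enhancers on lysine 4 of histone H3, within the COMPASS family of complexes, and it is often mutated in human medulloblastoma. Oxidative phosphorylation (OXPHOS) is the work of complexes I to IV of the respiratory chain and of ATP synthase (complex V) in the inner mitochondrial membrane. Most of their subunits are encoded in the nucleus and a few in the mitochondrial genome.

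Kmt2d (chromosome 15, 98831669 to 98874077, GRCm38.p6), the floxed gene, was read first. Levels are TMM-scaled CPM values. Kmt2d was at 68.1, 57.3, 56.9 and 53.3 CPM in Ptch 1 to 4, against 34.7, 41.5 and 44.1 CPM in AKP 1 to 3. All 3 AKP libraries lay below all 4 Ptch libraries, and Kmt2d fell in AKP (log2 fold change -0.55, SE 0.114, adjusted p = 0.0264 by edgeR's quasi-likelihood test with Benjamini-Hochberg adjustment). The fall did not pass without Ptch 1, Ptch 2, Ptch 3, AKP 2 or AKP 3 (adjusted p = 0.0674, 0.0689, 0.05499, 0.0867 and 0.06097), and its log2 fold change was -0.13 (adjusted p = 0.687) after trends with transcript length and GC content were removed. Its longest annotated transcript has 19823 bases. Ptch1, the receptor gene of the shared Ptch+/- background, was at 73.7, 77.2, 102 and 105 CPM in Ptch 1 to 4, against 91.96, 55.7 and 66.3 CPM in AKP 1 to 3, with overlapping groups and no call (log2 fold change -0.33, SE 0.193, adjusted p = 0.336). Counts summed over the whole gene may not register a deleted exon, so Kmt2d levels check the genotype only in part.

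The libraries differed in more than their group. Totals ran from 12300430 counts (Ptch 1) to 19348991 (Ptch 3). The closest pairs were Ptch 3 with Ptch 4, Ptch 1 with Ptch 2 and AKP 2 with AKP 3, whose chi-square over genes divided by its degrees of freedom was 3.28, 3.47 and 8.61, whereas AKP 1 with AKP 2 had 37.2 and with AKP 3 18.6. Across the 2 Ptch pairs it was 25.99 to 28.96. That is more than for AKP 1 with Ptch 3 or Ptch 4 (17.8 and 18.1) and AKP 3 with Ptch 3 or Ptch 4 (21.6 and 21.9). The other values between the groups were larger, from 30.1 to 51.8. On the first principal component, with 43.6% of the variance, AKP 1 (68.8) stood apart from the other 6 libraries (-39.4 to 13.2). The second held 23.1% and set AKP 2 (-45.7) and AKP 3 (-28.5) apart from AKP 1 (2.87) and the Ptch libraries (13.9 to 23.3). The sex label did not match Xist and Y-linked levels in Ptch 1, Ptch 3 and AKP 3. Ddx3y, for example, was at 0.0767, 0.103, 38.4 and 30.5 CPM in Ptch and 31.99, 15.2 and 26.8 CPM in AKP, so that Y-linked expression was near 0 in Ptch 1 and Ptch 2 alone. Cerebellar markers were high in every library, such as Cbln3 of granule neurons (571 to 1040.3 CPM) and Calb2 (568 to 919 CPM). Markers of SHH medulloblastoma did not follow the tissue label. The summed level of 16 such genes was 1005, 1061, 586 and 592 CPM in Ptch 1 to 4 and 349, 785 and 720.4 CPM in AKP 1 to 3, lowest in the library labelled AKP 1 and highest in the pair labelled Ptch 1 and Ptch 2. AKP 1, Ptch 1 and Ptch 2 are therefore called the libraries in doubt, and the counts for most gene lists are given with and without them. They were picked by these levels, so results without them for hedgehog, precursor and cell cycle genes follow in part from that choice.

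Between the groups, 1195 of 15508 genes (7.71%) passed at an adjusted p below 0.05, 718 higher (4.63%) and 477 lower (3.08%) in AKP. The gene lists below are to be read beside these shares, and a single call in a list is not a result about that list. With upper quartile scaling the higher share of the calls was 70.4% in place of 60.1%. The changes were small. The median log2 fold change was 0.47 for the genes that rose and -0.44 for those that fell, and only 36 rose (0.232%) and 23 fell (0.148%) by 2-fold or more. Among the 1195 genes, 1193 had groups that did not overlap, while over all genes tested 2070 (13.3%) lay above and 1801 (11.6%) below the 4 Ptch libraries in all 3 AKP libraries. Leaving out 1 library at a time moved the count of calls to 6 without Ptch 1, 63 without Ptch 2, 504 without Ptch 3, 309 without Ptch 4, 1829 without AKP 1, 82 without AKP 2 and 256 without AKP 3. All 1195 genes kept their direction in each of these 7 fits, but of the 135 genes given with a fold change in the text, 118, 100, 53 and 66 no longer passed without Ptch 1 to 4 in turn and 14, 94 and 82 without AKP 1 to 3. Some of the 135 had not passed with all 7 libraries, and in a fit with no call at all the number lost was 124. The count was 3 with the sex label as a covariate, though that label did not match Xist and Y-linked levels in Ptch 1, Ptch 3 and AKP 3. It was 0 by edgeR in the libraries labelled 2 months alone, where 2230 genes had an unadjusted p below 0.05. Without the 3 libraries in doubt, with 4 libraries left, it was 4141. Those 4 are the closest pair of each group, so only the spread within pairs, which may be technical, enters that fit. Larger counts without the libraries in doubt, here and below, are therefore not stronger results. Without Ptch 1, red blood cell markers were the only gene list below with a call. For lists given below without Ptch 2 and AKP 1 only, the count without AKP 2 or AKP 3 was 0 in most and at most 2.

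Among the called genes AKP 2 most often lay farthest from Ptch and AKP 3 least often. Of the 718 genes that rose, 523 were highest in AKP 2, 152 in AKP 1 and 43 in AKP 3, and of the 477 that fell, 260 were lowest in AKP 2, 141 in AKP 1 and 79 in AKP 3, with ties counted in each. The median log2 difference from the Ptch mean for genes that rose was 0.42, 0.56 and 0.39 in AKP 1 to 3, and for genes that fell -0.42, -0.49 and -0.41. Agreement among the AKP libraries was thus close for the called genes, which the test favours, and less so over all genes. Over all genes AKP 1 had 4916 above and 4694 below the Ptch range, AKP 2 had 4662 and 4858, and AKP 3 had 4150 and 4278. AKP 1 alone lay below the Ptch range in 1252 genes (8.07%) and alone above it in 933. AKP 2 and AKP 3 lay below the range with AKP 1 within it in 929 genes, and above it with AKP 1 within it in 741. In 300 genes AKP 1 lay below and AKP 2 and AKP 3 above the Ptch range, and in 399 the order was turned around.

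**Figure D1:**
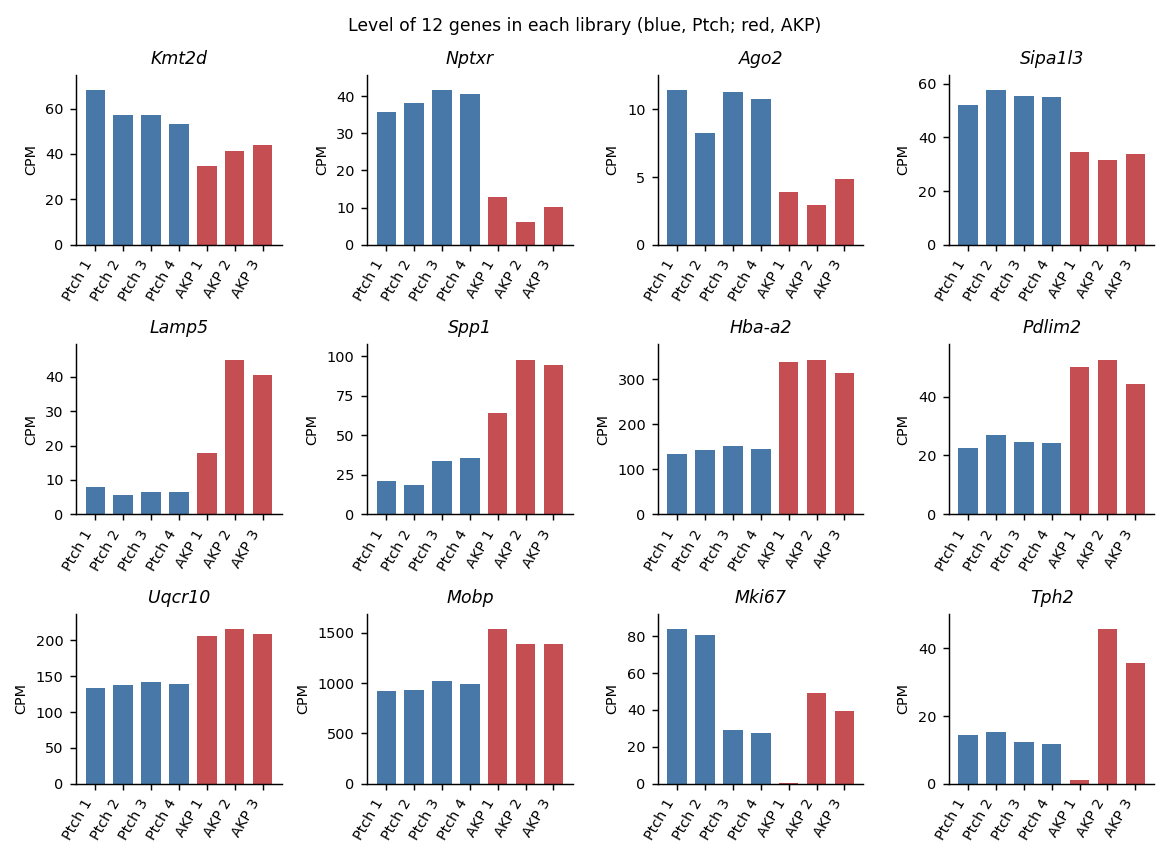
Level in CPM of 12 genes in each library, with a bar for each of 4 Ptch (blue) and 3 AKP (red) libraries. In 10 of the 12 the groups do not overlap, while Mki67 (0.583 CPM) and Tph2 (1.17 CPM) are lowest in AKP 1 and differ among the AKP libraries.

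Transcript length moved with the groups. With the tested genes sorted into 10 equal bins by their longest annotated transcript (known for 96.8%), the median log2 fold change stepped down from 0.34 in the shortest 10% (99 to 1356 bases) to -0.25 in the longest (6836 bases and more). The shortest 10% held 302 genes that rose and 3 that fell, and the longest 4 and 220. Genes that rose had a median length of 1554 bases and genes that fell 6592, against 3379 over all genes tested. Each AKP library had this trend, from 0.26 to -0.21 in AKP 1, from 0.48 to -0.30 in AKP 2 and from 0.30 to -0.21 in AKP 3, whereas the Ptch libraries stayed between -0.04 and 0.06 in all 10 bins. Medians over 10 bins of GC content ran only from -0.05 to 0.03. With both trends taken out of each library, 49 genes passed, 37 higher (0.239%) and 12 lower (0.0774%), and 44 of them were among the 1195. The part of transcript length in the results below was not tested beyond this fit. The value with the trends removed is given as the corrected value below. Of the 135 genes given with a fold change, some of which had not passed before, 109 no longer passed in the corrected fit.

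**Figure D2:**
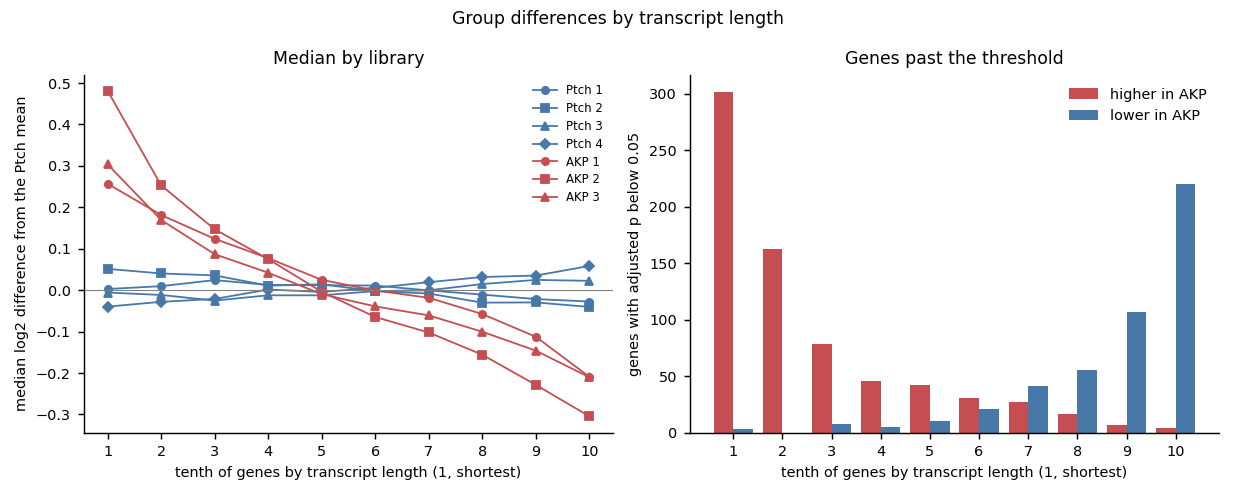
Left, the median log2 difference from the Ptch mean in each library (Ptch blue, AKP red) over 10 equal bins of genes by transcript length, which steps down in all 3 AKP libraries. Right, the number of genes past the threshold in each bin, with 302 higher in the shortest and 220 lower in the longest.

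Nuclear genes for OXPHOS subunits were the broadest group of genes that rose. Of 78 tested, 68 rose and none fell, with a median log2 fold change of 0.53 against -0.01 over all genes, and in 75 the groups did not overlap. Their summed level was 18251, 18571, 20106 and 19557 CPM in Ptch 1 to 4 and 26213, 27954 and 24775 CPM in AKP 1 to 3. The median corrected value was 0.202, with 6 genes past the threshold. The list is short in transcript length, with a median of 1135 bases. Within the shortest 10% of genes its 45 members had a median of 0.56 and 44 rose, against a median of 0.33 for the other genes of that bin. In the next bin its 15 members had 0.37 against 0.19. The count of 68 was 65 without AKP 1, 23 without AKP 2, 49 without AKP 3, 0 without Ptch 1, 13 without Ptch 2, 54 without Ptch 3 and 42 without Ptch 4. It was 68 without AKP 1, Ptch 1 and Ptch 2 together, and 0 without Ptch 1 and Ptch 2.

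Complex I, which takes electrons from NADH, had 32 of 36 nuclear genes higher (median 0.54, corrected 0.21). Ndufa11, an accessory subunit of the membrane arm, was at 114, 121, 127 and 123 CPM in Ptch 1 to 4, against 185, 204 and 179.8 CPM in AKP 1 to 3 (log2 fold change 0.64, SE 0.0741, adjusted p = 0.0103, corrected 0.34 with adjusted p = 0.0946). Ndufb4, another membrane arm subunit, was at 77.6, 78.8, 93.7 and 88.5 CPM in Ptch 1 to 4, against 132, 145 and 135 CPM in AKP 1 to 3 (log2 fold change 0.698, SE 0.0865, adjusted p = 0.0103, corrected 0.37 with adjusted p = 0.137). Both were at similar levels in all 3 AKP libraries, each well above the highest Ptch library. Complex II, succinate dehydrogenase, also serves the citric acid cycle, and 3 of its 4 genes rose (log2 fold changes in brackets here and below). They were the iron-sulfur subunit gene Sdhb (0.55) and the membrane anchors Sdhd (0.44) and Sdhc (0.35). The flavoprotein gene Sdha was at 432, 422, 477 and 481 CPM in Ptch 1 to 4, against 490.5, 456 and 439.8 CPM in AKP 1 to 3, with overlapping groups and no call (adjusted p = 0.868). Complex III, which passes electrons to cytochrome c, had 7 of 9 nuclear genes higher (median 0.47, corrected 0.17). Its small subunit gene Uqcr10 (chromosome 11, 4701968 to 4704344) had 1 of the 10 smallest p-values among well measured genes, at 134, 138, 142 and 139 CPM in Ptch 1 to 4, against 207, 216 and 209 CPM in AKP 1 to 3 (log2 fold change 0.61, SE 0.0637, adjusted p = 0.00884, corrected 0.17 with adjusted p = 0.391). The core protein genes Uqcrc1 and Uqcrc2 did not pass (log2 fold changes 0.303 and 0.23).

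Complex IV, cytochrome c oxidase, had all 13 tested nuclear genes higher (median 0.59, corrected 0.24). Cox6c was at 389, 382, 452 and 437 CPM in Ptch 1 to 4, against 635, 751 and 625 CPM in AKP 1 to 3 (log2 fold change 0.69, SE 0.1001, adjusted p = 0.0129, corrected 0.65 with adjusted p = 0.0395). Ndufa4, a subunit first assigned to complex I and now placed in complex IV, rose by 0.63 (corrected 0.26, not passed), and Cox7b by 0.63 (corrected 0.24, not passed). Complex V, the ATP synthase, had 13 of 16 nuclear genes higher (median 0.47, corrected 0.19). Atp5j2, a subunit of its membrane part, was at 235, 239, 258 and 243 CPM in Ptch 1 to 4, against 386, 432 and 383 CPM in AKP 1 to 3 (log2 fold change 0.71, SE 0.0775, adjusted p = 0.00884, corrected 0.59 with adjusted p = 0.0325). Atp5l, likewise in the membrane part, rose by 0.69 and had a corrected value of 0.78 (adjusted p = 0.0455). In Cox6c, Atp5j2 and Atp5l the lowest AKP library stood above the highest Ptch library, and AKP 2 was the highest of the 7.

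**Figure D3:**
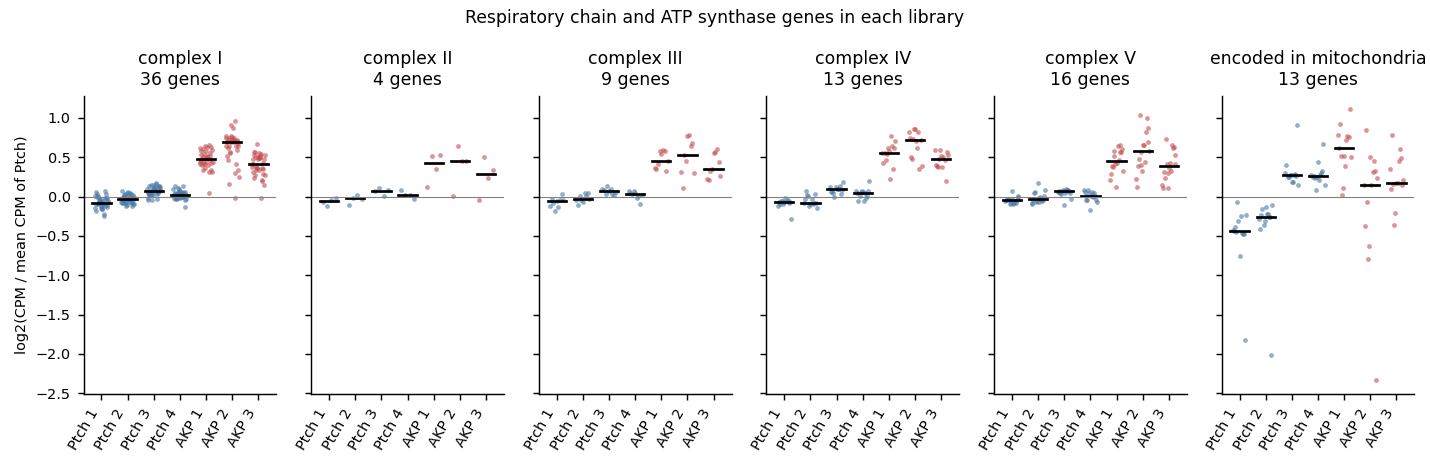
The log2 ratio of each gene's CPM to its mean in the Ptch libraries, for nuclear subunit genes of complexes I to V and the 13 mitochondrially encoded genes. Points are genes, black lines medians, blue Ptch and red AKP. Nuclear genes lie above 0 in all 3 AKP libraries with few exceptions, while mitochondrially encoded genes already differ between Ptch 1 and 2 and Ptch 3 and 4.

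Among the 13 mitochondrially encoded genes only mt-Nd3, a complex I subunit gene, rose (1449, 1605, 2249 and 2264 CPM in Ptch 1 to 4, against 3573, 3405 and 3252 CPM in AKP 1 to 3, log2 fold change 0.85, SE 0.167, adjusted p = 0.0242, corrected 0.14 with adjusted p = 0.513). The median of these genes was 0.32 with a corrected value of -0.08. Their summed level was 65749, 71987, 100171 and 100740.0 CPM in Ptch 1 to 4 and 127384, 97099.8 and 105764 CPM in AKP 1 to 3, so the Ptch libraries split by age label and AKP 2 lay within the Ptch range. Of 40 OXPHOS assembly factor genes, 13 rose and none fell (median 0.35, corrected 0.16), with 0, 1, 9 and 4 without Ptch 1 to 4 in turn and 11, 1 and 6 without AKP 1 to 3 in turn, and 14 without the 3 libraries in doubt. Among them were Coa3 (0.69) and Cox14 (0.56), both needed to build complex IV, and Ndufaf5 (0.54), a modifying enzyme of complex I assembly. None of 12 regulators of mitochondrial biogenesis passed by edgeR or DESeq2 (median -0.11), while 5 had an unadjusted p below 0.05 by edgeR. Tfam, which packages and transcribes mitochondrial DNA, was at 53.7, 53.3, 51.8 and 52.97 CPM in Ptch 1 to 4, against 56.98, 63.4 and 61.7 CPM in AKP 1 to 3, and Ppargc1a, a coactivator of mitochondrial genes, at 14.7, 17.99, 22.96 and 25.8 CPM in Ptch 1 to 4, against 24.8, 20.8 and 22.4 CPM in AKP 1 to 3. Tfam was thus slightly higher in every AKP library than in any Ptch library, with no call (adjusted p = 0.118), and Ppargc1a overlapped between the groups.

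The start regions of some of these genes are shown because subunit genes from most parts of the chain rose together. NRF1 and the ETS factor GABP (also called NRF2) are known regulators of nuclear OXPHOS genes, and YY1 binds near many of their starts. The motifs searched on both strands were GCGCANGCG for the core of the NRF1 site, CCGGAAG for ETS factors and AAGATGGCG for YY1, in windows of 300 bases (250 before to 50 after the start) from RefSeq on GRCm38.p6. The 4 sequences below are the 120 bases before the start, 5′ to 3′ on the gene's own strand, from the subunit genes of smallest p whose 120 bases hold the NRF1 core. Some promoters were left out by chromosome before this choice. Capitals mark matches to the NRF1 core on either strand, and overlapping matches run together.
Ndufa11: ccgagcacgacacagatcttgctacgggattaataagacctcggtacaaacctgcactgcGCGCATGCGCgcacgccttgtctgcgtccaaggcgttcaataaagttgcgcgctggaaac
Ndufa8: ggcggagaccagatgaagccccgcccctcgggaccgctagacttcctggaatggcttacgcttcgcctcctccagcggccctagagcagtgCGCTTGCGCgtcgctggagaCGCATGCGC
Ndufb4: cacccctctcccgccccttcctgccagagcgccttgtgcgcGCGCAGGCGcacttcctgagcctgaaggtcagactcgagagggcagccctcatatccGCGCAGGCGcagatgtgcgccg
Atp5k: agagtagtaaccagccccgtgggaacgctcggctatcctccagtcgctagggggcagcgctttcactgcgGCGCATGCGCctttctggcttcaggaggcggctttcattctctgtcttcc
The windows are chr17:56717642-56717761 on the plus strand for Ndufa11 and, on the minus strand, chr2:36049339-36049458 for Ndufa8, chr16:37654369-37654488 for Ndufb4 and chr5:108434400-108434519 for Atp5k. Ndufa8, a complex I subunit gene, rose by 0.54 (corrected 0.21) and Atp5k, an ATP synthase membrane subunit gene, by 0.74 (corrected 0.32), and neither passed in the corrected fit.

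Of 78 nuclear OXPHOS genes, 66 matched a promoter, and 22 (33.3%) of those held the NRF1 core, 16 (24.2%) the ETS motif and 7 (10.6%) the YY1 motif. Over the 12218 tested genes with a promoter the shares were 13.7%, 17.7% and 3.09%. Among all genes that rose, 594 matched, with 17.3%, 27.9% and 5.89%, and among genes that fell, 378 matched, with 17.2%, 16.7% and 6.88%. The share with the NRF1 core was thus near the same in genes that rose and fell. Over all 32851 promoters of the table, expressed or not, the shares were 6.25%, 8.86% and 1.40%. A match describes the letters of a window and says nothing of binding.

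Of 77 mitochondrial ribosomal protein genes, 37 rose and none fell (median 0.37, corrected 0.18). The count was 0, 1, 14 and 6 without Ptch 1 to 4 in turn and 42, 2 and 9 without AKP 1 to 3 in turn, and 58 without the 3 libraries in doubt. None passed in the corrected fit. Mrps21 of the small subunit was at 58.7, 61.9, 59.9 and 55.3 CPM in Ptch 1 to 4, against 84.7, 107 and 91.8 CPM in AKP 1 to 3 (log2 fold change 0.68, SE 0.0916, adjusted p = 0.0116, corrected 0.22 with adjusted p = 0.148), and Mrpl20 of the large subunit rose by 0.62. Promoters of this list held the ETS motif in 36.8% of 68 matched genes. Of 78 cytosolic ribosomal protein genes 5 rose (median 0.36, corrected 0.08), near the 4.63% over all genes. The count was 0, 0, 0 and 0 without Ptch 1 to 4 in turn and 55, 0 and 0 without AKP 1 to 3 in turn. It was 78 without the 3 libraries in doubt and 29 by DESeq2. The summed level of the 78 genes was 37239.9, 37368, 33139.9 and 31145 CPM in Ptch 1 to 4 and 33891, 56613 and 44960.0 CPM in AKP 1 to 3, so AKP 1 lay within the Ptch range and AKP 2 far above it. Rpl38 (0.66) and Rpl26 (0.58) were among the 5. In the proteasome, which degrades tagged proteins, 12 of 31 genes rose (median 0.27, corrected 0.10), such as the core particle genes Psmb4 (0.45) and Psma2 (0.43). That count was 0, 0, 1 and 0 without Ptch 1 to 4 in turn and 16, 0 and 0 without AKP 1 to 3 in turn, and 26 without the 3 libraries in doubt, and none passed in the corrected fit. Of 32 ribosome biogenesis and MYC target genes 0 rose and 1 fell (median -0.14). That gene was Polr1a, the largest subunit gene of RNA polymerase I, at 27.5, 26.5, 25.1 and 27.3 CPM in Ptch 1 to 4, against 15.8, 21.3 and 20.8 CPM in AKP 1 to 3 (log2 fold change -0.46, SE 0.12, adjusted p = 0.0495, corrected -0.203 with adjusted p = 0.457).

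In central carbon metabolism, 2 of 16 citric acid cycle genes rose (median 0.16), with 0 without Ptch 2, 1 without AKP 1 and 2 without the 3 libraries in doubt. They were Suclg1 (0.37), of succinyl-CoA ligase, and Pdhb (0.29), of pyruvate dehydrogenase, which feeds the cycle. Of 17 glycolysis genes 4 rose (median 0.21), with 0 without Ptch 2, 3 without AKP 1 and 5 without the 3 libraries in doubt. They were Pgk1 (0.39), Ldhb (0.35), Pgam1 (0.298) and Tpi1 (0.33). Pgk1, which makes ATP in glycolysis, was at 439.8, 429, 451 and 460.2 CPM in Ptch 1 to 4, against 585, 597 and 569 CPM in AKP 1 to 3, with little spread in either group. Of 22 cholesterol synthesis genes only Pmvk rose (0.33), with 0 without Ptch 2, 1 without AKP 1 and 8 without the 3 libraries in doubt. Among 15 hypoxia response genes the mitophagy receptor genes Bnip3 (0.49) and Bnip3l (0.38) rose and none fell (median -0.03), with 0 without Ptch 2, 2 without AKP 1 and 4 without the 3 libraries in doubt. Of 18 genes of the unfolded protein and heat shock response 4 rose (median 0.31), with 0 without Ptch 2, 6 without AKP 1 and 8 without the 3 libraries in doubt. They were the chaperones Hspa5 (0.36) and Hsp90b1 (0.37) of the endoplasmic reticulum and the stress transcription factors Xbp1 (0.37) and Ddit3 (0.44). Without AKP 2 or AKP 3 none of these metabolic and stress lists held a gene that rose.

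Of the chromatin regulators, the lists around Kmt2d held the most genes that fell. In the COMPASS, demethylase, acetylation coactivator and remodeller lists combined, 31 of 95 tested genes fell and none rose, with a median of -0.298, and in 49 all AKP libraries lay below all Ptch libraries. These transcripts are long (median 5921 bases), and the median corrected value was -0.14 with none past the threshold. Within the longest 10% of genes, 37 members had a median of -0.40 and 22 fell, against -0.25 for the other genes there. In the bin before it, 15 members had -0.41 and 7 fell, against -0.17. The count of 31 was 28 without AKP 1, 2 without AKP 2, 5 without AKP 3, 0 without Ptch 1, 0 without Ptch 2, 13 without Ptch 3 and 11 without Ptch 4. It was 40 without the 3 libraries in doubt.

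The family of Kmt2d itself took part. Of 20 methyltransferases of the KMT2 and SETD1 kind and their COMPASS partners, 9 fell and none rose (median -0.27, corrected -0.14), with 0, 0, 3 and 2 without Ptch 1 to 4 in turn and 7, 0 and 1 without AKP 1 to 3 in turn, and 9 without the 3 libraries in doubt. Kmt2a, the founding member, was at 58.03, 69.1, 59.7 and 65.5 CPM in Ptch 1 to 4, against 39.6, 45.01 and 45.2 CPM in AKP 1 to 3 (log2 fold change -0.54, SE 0.0921, adjusted p = 0.017, corrected -0.18 with adjusted p = 0.4004). Kmt2c, the closest relative of Kmt2d, was at 54.96, 53.7, 54.97 and 63.1 CPM in Ptch 1 to 4, against 42.6, 42.7 and 43.5 CPM in AKP 1 to 3 (log2 fold change -0.40), and Kmt2b fell too (-0.45). The paralogs Setd1b (-0.56) and Setd1a (-0.32) fell, as did the partners Ncoa6 (-0.48) and Paxip1 (-0.41) of the Kmt2c and Kmt2d complexes and Hcfc1 (-0.38). The log2 fold change of Kmt2d (-0.55) lay close to those of Kmt2a and Setd1b, and the part of the floxed copy in it was not tested. Of 23 lysine demethylase genes tested, 6 fell (median -0.31, corrected -0.16), with 0, 0, 2 and 2 without Ptch 1 to 4 in turn and 6, 0 and 0 without AKP 1 to 3 in turn, and 8 without the 3 libraries in doubt. They were Kdm5c (-0.61), Kdm6b (-0.51), Phf2 (-0.43), Jmjd1c (-0.397), Kdm2a (-0.39) and Kdm3b (-0.31). Kdm6a, the H3K27 demethylase that sits in the Kmt2c and Kmt2d complexes, was at 22.9, 26.4, 18.6 and 18.6 CPM in Ptch 1 to 4, against 17.1, 9.93 and 12.4 CPM in AKP 1 to 3, below all Ptch libraries in all AKP libraries, and did not pass (log2 fold change -0.72, SE 0.203, adjusted p = 0.0609). Its highest levels were in Ptch 1 and Ptch 2, where Y-linked expression was near 0, and a part of sex was not tested. Kdm1a, which removes H3K4 methyl groups, was at 88.2, 87.9, 63.5 and 61.3 CPM in Ptch 1 to 4, against 50.8, 78.6 and 73.3 CPM in AKP 1 to 3, with overlapping groups (log2 fold change -0.15, SE 0.1901, adjusted p = 0.666).

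Of 19 acetylation coactivator genes 6 fell (median -0.38, corrected -0.18), with 0, 0, 2 and 4 without Ptch 1 to 4 in turn and 7, 0 and 1 without AKP 1 to 3 in turn, and 10 without the 3 libraries in doubt. Kat6b, a histone acetyltransferase, was at 28.9, 29.2, 27.4 and 24.8 CPM in Ptch 1 to 4, against 19.7, 17.7 and 18.2 CPM in AKP 1 to 3 (log2 fold change -0.58, SE 0.0999, adjusted p = 0.0175, corrected -0.37 with adjusted p = 0.142), and its scaffold partners Brpf3 (-0.62), Brpf1 (-0.41) and Brd1 (-0.39) fell with Kat6a (-0.47). Ep300, an enhancer acetyltransferase, had -0.44 without a call (adjusted p = 0.0604). Among 34 SWI/SNF and CHD remodeller genes 10 fell (median -0.25, corrected -0.11), with 0, 0, 6 and 3 without Ptch 1 to 4 in turn and 9, 2 and 3 without AKP 1 to 3 in turn, and 14 without the 3 libraries in doubt. Chd7, a remodeller needed in cerebellar development, was at 110.2, 101, 94.03 and 93.9 CPM in Ptch 1 to 4, against 65.1, 66.3 and 74.2 CPM in AKP 1 to 3 (log2 fold change -0.54, SE 0.0874, adjusted p = 0.0154, corrected -0.27 with adjusted p = 0.192), and Chd6 (-0.62), Srcap (-0.51) and Chd4 (-0.45) fell too. The Mediator list was mixed, with Med31 higher (0.39) and Med12 (-0.68), Med13l (-0.58), Med25 (-0.41) and Med24 (-0.302) lower of 33. Without the 3 libraries in doubt 6 rose and 8 fell, and without AKP 1 2 rose and 6 fell. Of 35 Polycomb and histone deacetylase genes only Ncor1, a corepressor scaffold, fell (-0.44), near the 3.08% over all genes. The count was 0 without Ptch 2, 2 without AKP 1 and 5 without the 3 libraries in doubt. Among 12 DNA methylation genes only Dnmt1, the maintenance methyltransferase, fell, with 0 without Ptch 2, 0 without AKP 1 and 4 without the 3 libraries in doubt. It was at 94.9, 93.3, 61.9 and 66.9 CPM in Ptch 1 to 4, against 42.2, 50.3 and 51.2 CPM in AKP 1 to 3 (log2 fold change -0.72, SE 0.169, adjusted p = 0.03896, corrected -0.54 with adjusted p = 0.1898), so Ptch 1 and Ptch 2 stood above the other 5 libraries.

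Of 14 genes of the Argonaute and microRNA machinery 6 fell and none rose (median -0.33, corrected -0.15), with 0, 2, 6 and 2 without Ptch 1 to 4 in turn and 6, 1 and 2 without AKP 1 to 3 in turn, and 7 without the 3 libraries in doubt. Ago2 (chromosome 15, 73101625 to 73184947), the Argonaute that cuts its targets, was at 11.4, 8.27, 11.3 and 10.7 CPM in Ptch 1 to 4, against 3.92, 2.97 and 4.84 CPM in AKP 1 to 3 (log2 fold change -1.41, SE 0.216, adjusted p = 0.01397, corrected -1.099 with adjusted p = 0.0579). The other Argonaute genes Ago3 (-0.44) and Ago1 (-0.36) and the silencing scaffolds Tnrc6b (-0.64), Tnrc6c (-0.44) and Tnrc6a (-0.38) fell too. Dicer1, which cuts microRNA precursors, did not pass (-0.36, adjusted p = 0.0623).

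**Figure D4:**
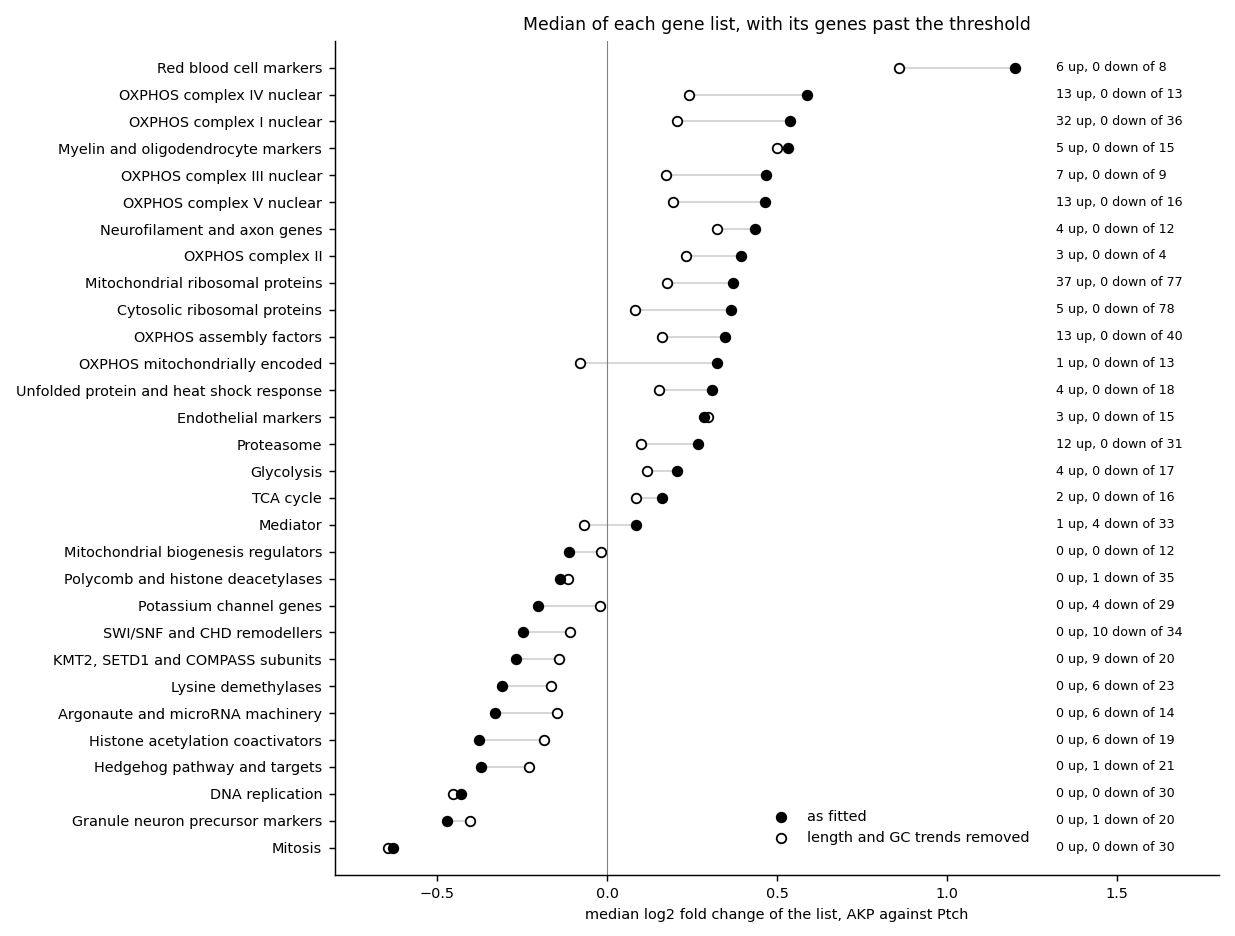
Median log2 fold change of 30 gene lists, AKP against Ptch, as fitted (filled) and with length and GC trends removed (open), with the genes past the threshold at the right. Medians of OXPHOS and chromatin lists move toward 0 with the trends removed, from 0.54 to 0.21 for complex I, while those of mitosis and myelin genes move by less than 0.1.

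The largest fall by the rule for named genes was in Nptxr (chromosome 15, 79786351 to 79804709), the neuronal pentraxin receptor of synapses. It was at 35.7, 38.1, 41.6 and 40.5 CPM in Ptch 1 to 4, against 12.9, 6.09 and 10.1 CPM in AKP 1 to 3, or 9.71 ± 3.43 CPM (SD, n = 3) over the AKP libraries, against 39 ± 2.63 CPM (SD, n = 4) over the Ptch libraries. Its log2 fold change was -2.01 (SE 0.216, adjusted p = 0.0103). Every AKP library was far below every Ptch library, and the corrected value was -1.85 (adjusted p = 0.0243). Of the related secreted pentraxins, Nptx1 was at 399, 389.5, 434 and 426 CPM in Ptch and 447, 255 and 308 CPM in AKP, with overlapping groups. Next came Ago2, Ddi2 (-1.36), a protease that activates a proteasome gene regulator, and Tnks (-1.13), a poly-ADP-ribose polymerase of telomeres and Wnt signalling. Ttc28 (-1.11), the protocadherin gene Pcdhga12 (-1.05), the zinc transporter gene Slc39a2 (-1.004), Zfp568 (-0.95) and Hrk (-0.92), which encodes a BH3-only promoter of cell death, followed. Zfhx2os (-1.24) overlaps Zfhx2 on the other strand, and without strand their reads cannot be told apart. Pcdhga12 shares its 3′ exons with the other genes of its cluster, so its level is uncertain. Sipa1l3, a regulator of the small GTPase Rap, fell with 1 of the 10 smallest p-values, at 51.97, 57.6, 55.3 and 55.03 CPM in Ptch 1 to 4, against 34.4, 31.5 and 33.7 CPM in AKP 1 to 3 (log2 fold change -0.73, SE 0.0774, adjusted p = 0.00884, corrected -0.47 with adjusted p = 0.0389). Adnp, an activity-dependent homeobox gene of the ChAHP chromatin complex, was chosen after its values were seen, as its mean count is below the minimum of 100. It was at 8.202, 7.55, 6.64 and 9.58 CPM in Ptch 1 to 4, against 1.75, 1.81 and 2.31 CPM in AKP 1 to 3 (log2 fold change -2.02, SE 0.219, adjusted p = 0.00884, corrected -1.91 with adjusted p = 0.0243).

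The largest rise by the rule for named genes was in Lamp5, which encodes a membrane protein of neuronal vesicles. It was at 7.97, 5.53, 6.43 and 6.56 CPM in Ptch 1 to 4, against 17.8, 45.01 and 40.6 CPM in AKP 1 to 3 (log2 fold change 2.39, SE 0.299, adjusted p = 0.0116, corrected 2.24 with adjusted p = 0.0343). AKP 2 and AKP 3 carried most of it, though AKP 1 also lay above all Ptch libraries. Spp1, which encodes the secreted protein osteopontin, was at 20.8, 18.4, 33.8 and 35.8 CPM in Ptch 1 to 4, against 64.1, 98 and 94.8 CPM in AKP 1 to 3 (log2 fold change 1.65, SE 0.267, adjusted p = 0.01899, corrected 1.38 with adjusted p = 0.0784). Hspb1, a small heat shock protein gene, was at 7.28, 6.51, 11.4 and 13.4 CPM in Ptch 1 to 4, against 20.1, 26.5 and 22.8 CPM in AKP 1 to 3 (log2 fold change 1.26, SE 0.248, adjusted p = 0.0248, corrected 0.95 with adjusted p = 0.145). Sncg, gamma-synuclein, was at 11.4, 7.08, 11.7 and 11.8 CPM in Ptch 1 to 4, against 13.2, 31.4 and 25.9 CPM in AKP 1 to 3 (log2 fold change 1.17, SE 0.294, adjusted p = 0.0493, corrected 0.81 with adjusted p = 0.211), so AKP 1 stood near the Ptch libraries. Mgp, matrix Gla protein, was at 27.7, 24.1, 30.01 and 32.9 CPM in Ptch 1 to 4, against 49.6, 74.6 and 64.8 CPM in AKP 1 to 3 (log2 fold change 1.14, SE 0.149, adjusted p = 0.0116, corrected 0.72 with adjusted p = 0.0613). Pdlim2 (chromosome 14, 70162621 to 70177672), an adaptor of the actin cytoskeleton, had about the same level in all AKP libraries, at 22.4, 27.03, 24.4 and 24.2 CPM in Ptch 1 to 4, against 49.9, 52.6 and 44.3 CPM in AKP 1 to 3 (log2 fold change 0.99, SE 0.0962, adjusted p = 0.00836, corrected 0.97 with adjusted p = 0.0209).

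Red blood cell genes were higher in every AKP library. Of 8 tested, 6 rose and none fell (median 1.20, corrected 0.86). Hba-a2, an alpha globin gene, had the smallest p of all genes and was at 134, 143, 152 and 145 CPM in Ptch 1 to 4, against 337, 343 and 314 CPM in AKP 1 to 3 (log2 fold change 1.21, SE 0.074, adjusted p = 0.000605, corrected 0.804 with adjusted p = 0.0265). Its near copy Hba-a1 rose by 1.27, the beta globin genes Hbb-bt and Hbb-bs by 1.68 and 1.45, and their split between such copies is uncertain. Alas2, the first enzyme of heme synthesis in red blood cells, was at 6.21, 5.22, 6.33 and 5.46 CPM in Ptch 1 to 4, against 13.6, 13.5 and 12.8 CPM in AKP 1 to 3 (log2 fold change 1.19, SE 0.142, adjusted p = 0.0103, corrected 1.08 with adjusted p = 0.0327), and Bpgm rose too (0.38). The summed level was 855, 885, 967 and 968 CPM in Ptch 1 to 4 and 2252, 2424 and 1937 CPM in AKP 1 to 3. The count of 6 was 4, 5, 5 and 5 without Ptch 1 to 4 in turn and 6, 5 and 5 without AKP 1 to 3 in turn, and 7 without the 3 libraries in doubt, 5 with length and GC trends removed, 3 with the sex label as a covariate and 2 without Ptch 1 and Ptch 2. Blood genes thus moved with the groups, and their part in the other results was not tested.

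Markers of myelinating oligodendrocytes were higher, with 5 of 15 past the threshold and none lower (median 0.53, corrected 0.50). Mobp, a myelin protein gene, was at 925, 933, 1016 and 992 CPM in Ptch 1 to 4, against 1535, 1388 and 1384 CPM in AKP 1 to 3 (log2 fold change 0.57, SE 0.0863, adjusted p = 0.0133, corrected 0.59 with adjusted p = 0.038), and Mog (0.67), Mag (0.46) and Mbp (0.53) were among the others that rose. The 15 markers summed to 6399, 6443, 7939 and 7651 CPM in Ptch 1 to 4 and 11915, 9406 and 9482 CPM in AKP 1 to 3, highest in AKP 1. The count of 5 was 0, 0, 2 and 2 without Ptch 1 to 4 in turn and 4, 1 and 2 without AKP 1 to 3 in turn, and 7 without the 3 libraries in doubt. Of 12 oligodendrocyte precursor markers only Olig1 rose (0.37). Among 15 endothelial markers 3 rose (median 0.29, corrected 0.297), with 1 without Ptch 2, 2 without AKP 1 and 5 without the 3 libraries in doubt. They were Ly6c1 (0.70), Ly6a (0.71) and Itm2a (0.68). Ly6c1 was at 37.02, 34.9, 39.2 and 35.1 CPM in Ptch 1 to 4, against 60.6, 58.8 and 58.8 CPM in AKP 1 to 3, nearly equal in the AKP libraries, and its corrected value was 0.34 (adjusted p = 0.147). None of 14 pericyte and meningeal, 12 choroid plexus or 16 astrocyte and Bergmann glia markers passed by edgeR, while 3, 2 and 2 had an unadjusted p below 0.05 and as many passed by DESeq2. Among 16 microglia markers only Spp1, which other cells also make, passed, with 0 without Ptch 2, 2 without AKP 1 and 8 without the 3 libraries in doubt, and the summed level was 508, 488, 415 and 390.0 CPM in Ptch 1 to 4 and 367, 762 and 631 CPM in AKP 1 to 3. AKP 1 was lowest and AKP 2 highest. Of 9 ependymal markers tested only the cilia gene Ccdc153 rose (0.93). Only 2 of 12 lymphocyte markers were expressed enough to test, Cd79a and Cd4, and neither passed by edgeR or DESeq2 (1 had an unadjusted p below 0.05).

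**Figure D5:**
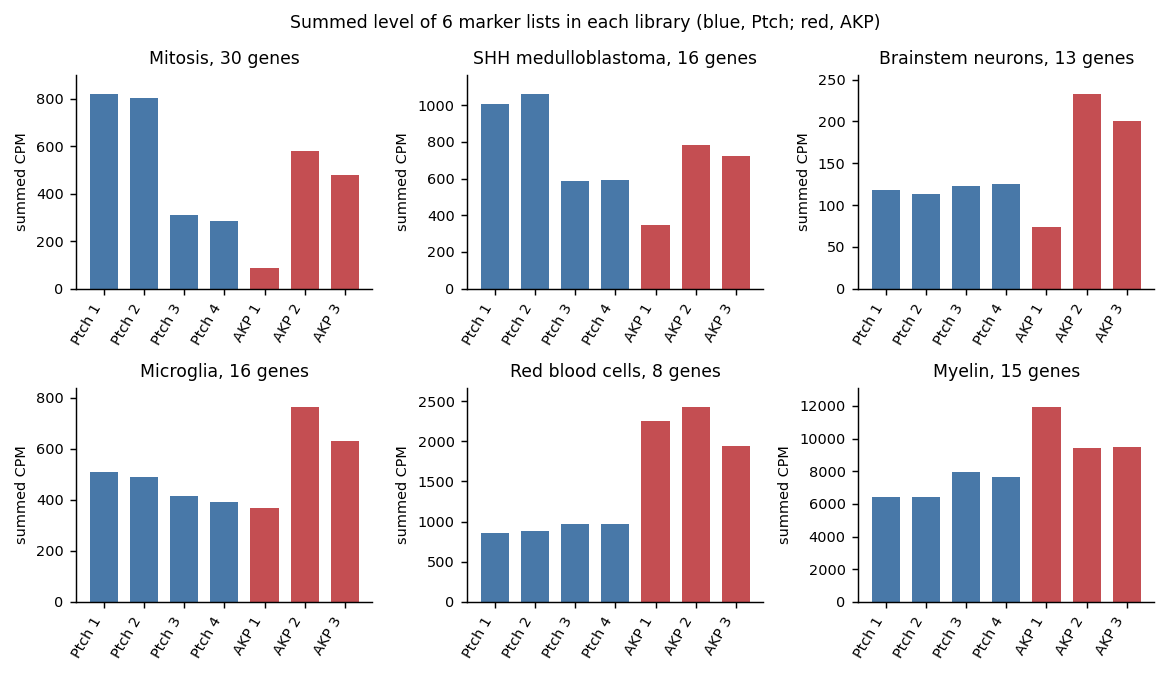
Summed CPM of 6 marker lists in each library, Ptch blue and AKP red. Red blood cell and myelin sums are higher in all 3 AKP libraries than in any Ptch library, while mitosis, SHH medulloblastoma, brainstem and microglia sums are lowest in AKP 1.

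Hedgehog genes summed to 1094, 1090.4, 931 and 941 CPM in Ptch 1 to 4 and 741, 892 and 874 CPM in AKP 1 to 3, and granule neuron precursor markers to 2272, 2362, 2192 and 2135 CPM in Ptch 1 to 4 and 1865, 1806 and 1973 CPM in AKP 1 to 3. Both sums were below every Ptch library in all 3 AKP libraries, while 1 gene fell in each list, against 3.08% of all genes. The median gene did not follow the sums. Its log2 difference from the Ptch mean in AKP 2 and AKP 3 was -0.11 and -0.14 for hedgehog genes and -0.18 and -0.13 for precursor markers. In Ptch 3 and Ptch 4 it was -0.15 and -0.23, and -0.25 and -0.20. In AKP 1 it was -0.40 and -0.59. All AKP libraries lay below all Ptch libraries in 2 of 21 and 2 of 20 genes, against 11.6% of all genes. Of 21 hedgehog pathway genes and targets only Boc, a coreceptor gene, fell, at 69.8, 69.2, 54.1 and 57.9 CPM in Ptch 1 to 4, against 48.6, 44.7 and 46.6 CPM in AKP 1 to 3 (log2 fold change -0.43, SE 0.106, adjusted p = 0.0437, corrected -0.31 with adjusted p = 0.172), and the list's median was -0.37 (corrected -0.23), with 0 without Ptch 2, 1 without AKP 1 and 3 without the 3 libraries in doubt. Gli1, a transcriptional effector and target of the pathway, was at 37.6, 45.02, 22.5 and 21.6 CPM in Ptch 1 to 4, against 11, 26.2 and 24.8 CPM in AKP 1 to 3 (log2 fold change -0.61, SE 0.3799, adjusted p = 0.368). It was lowest in AKP 1, and AKP 2 and AKP 3 lay between the Ptch pairs. Atoh1 was at 14.7, 16.4, 7 and 5.79 CPM in Ptch 1 to 4, against 0, 5.799 and 5.52 CPM in AKP 1 to 3 (log2 fold change -1.52, SE 0.933, adjusted p = 0.365). A count of 0 in AKP 1 makes the fitted fold depend on the prior count. Of 20 granule neuron precursor markers only Barhl2 fell (-0.46), with 0 without Ptch 2, 1 without AKP 1 and 3 without the 3 libraries in doubt. Sfrp1, a Wnt antagonist marking SHH tumours, was at 147, 151, 58.8 and 58.9 CPM in Ptch 1 to 4, against 8.25, 92.3 and 72.2 CPM in AKP 1 to 3, and the growth genes Ccnd2 and Mycn had the same order, at 115, 110.0, 62.5 and 53.04 CPM in Ptch and 7.16, 82.9 and 71.03 CPM in AKP for Ccnd2 and 58.7, 66.7, 24.2 and 23.9 CPM in Ptch and 5.25, 42.3 and 30.7 CPM in AKP for Mycn. In each, Ptch 1 and Ptch 2 were highest, AKP 2 and AKP 3 next, then Ptch 3 and Ptch 4, with AKP 1 lowest, and none of the 3 passed.

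Cell cycle genes differed widely within the AKP group. Mki67, a marker of dividing cells, was at 83.8, 80.5, 29.1 and 27.6 CPM in Ptch 1 to 4, against 0.583, 49.4 and 39.2 CPM in AKP 1 to 3 (log2 fold change -0.88, SE 1.04, adjusted p = 0.654), and Top2a, which untangles DNA for mitosis, at 79.2, 81.6, 26.8 and 23.02 CPM in Ptch 1 to 4, against 0.333, 49.8 and 42.6 CPM in AKP 1 to 3. Of 30 mitosis genes none passed by edgeR (1 at an unadjusted p below 0.05, 1 by DESeq2), 28 had a fold below 0 and the median was -0.63 (corrected -0.64). They summed to 821, 805, 309 and 283 CPM in Ptch 1 to 4 and 84.8, 580.3 and 478 CPM in AKP 1 to 3. Of 30 DNA replication genes none passed by edgeR or DESeq2 (1 at an unadjusted p below 0.05, median -0.43), with sums of 1097, 1072, 622 and 599 CPM in Ptch 1 to 4 and 394, 865 and 729 CPM in AKP 1 to 3. Of 19 CDK inhibitor and p53 target genes 3 lay above and 3 below the Ptch range in all AKP libraries, where the shares over all genes were 13.3% and 11.6%, and 1 passed in each direction (0 without Ptch 2, 1 without AKP 1 and 6 without the 3 libraries in doubt for genes that rose). Phlda3, a p53 target that restrains Akt, rose, at 25.5, 27.1, 30.2 and 27.6 CPM in Ptch 1 to 4, against 38.8, 62.6 and 50.8 CPM in AKP 1 to 3 (log2 fold change 0.88, SE 0.147, adjusted p = 0.0162, corrected 0.69 with adjusted p = 0.0653), and Mdm4, a p53 inhibitor, fell (-0.36).

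The genes in which AKP 1 lay farthest below AKP 2 and AKP 3, given as a description with no test, were Atoh1, Top2a, the precursor genes Nhlh1 and Insm1, the muscle regulator gene Myod1 and the serotonin transporter gene Slc6a4. Nhlh1 was at 69.8, 72.3, 22.5 and 18.6 CPM in Ptch and 0.167, 53.3 and 42.1 CPM in AKP, and Insm1, a factor of dividing neural precursors, at 92.1, 102, 34.4 and 32.9 CPM in Ptch and 0.666, 70.3 and 57.5 CPM in AKP. Slc6a4 was at 11.4, 10.5, 9.99 and 7.52 CPM in Ptch and 0.167, 26.1 and 22.4 CPM in AKP, and Tph2, the serotonin-making enzyme of the brainstem raphe, at 14.6, 15.5, 12.3 and 11.6 CPM in Ptch and 1.17, 45.7 and 35.6 CPM in AKP, so serotonergic genes were highest in AKP 2 and AKP 3 and lowest in AKP 1. The brainstem list had 13 of 26 markers tested, all with a fold above 0 (median 1.11, corrected 0.95) and 1 past the threshold (Prph, 1.46), with 0 without Ptch 2, 6 without AKP 1 and 7 without the 3 libraries in doubt. It summed to 118, 113, 122 and 125 CPM in Ptch 1 to 4 and 73.7, 233 and 200.1 CPM in AKP 1 to 3. Genes with the largest excess in AKP 1 included Xist, mt-Atp8 and Klhl4. In the same description Ptch 1 and Ptch 2 stood above Ptch 3 and Ptch 4 in Xist, Mroh2a, Fgfr4, Ddn and Mfap4. Entpd4 also had a higher mean in Ptch 1 and Ptch 2, but was lower in Ptch 2 than in Ptch 3 (60.9, 10.6, 32.5 and 0 CPM in Ptch and 67.7, 36.9 and 44.9 CPM in AKP). Its near copy Entpd4b was at 35.9, 68.2, 52.2 and 82.1 CPM in Ptch and 5.91, 15.5 and 0 CPM in AKP, and the split between such copies is uncertain. Ptch 1 and Ptch 2 stood below Ptch 3 and Ptch 4 in mt-Atp8, Bmp5 and the Y-linked genes Ddx3y, Kdm5d, Eif2s3y and Uty. Fgfr4, a growth factor receptor gene, was at 21.6, 20.1, 4.68 and 3.15 CPM in Ptch and 0.583, 5.36 and 3.88 CPM in AKP.

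Neuronal lists differed in their counts. Of 16 markers of mature granule neurons none passed by edgeR (median -0.12, 2 at an unadjusted p below 0.05 and 2 by DESeq2), and of 14 immature migrating neuron markers the guidance receptor genes Unc5c (-0.49) and Plxna2 (-0.33) and the migration gene Astn1 (-0.29) fell, with 0 without Ptch 2, 1 without AKP 1 and 2 without the 3 libraries in doubt. Pvalb, a calcium buffer of Purkinje cells and interneurons, was the only gene of the 14 Purkinje cell and 13 interneuron markers to rise, at 925, 934, 1226 and 1160.3 CPM in Ptch 1 to 4, against 2011, 1625 and 1448 CPM in AKP 1 to 3 (log2 fold change 0.68, SE 0.146, adjusted p = 0.0292, corrected 0.35 with adjusted p = 0.377). Of 12 neurofilament and axon genes 4 rose (median 0.44, corrected 0.32), with 0 without Ptch 2, 7 without AKP 1 and 9 without the 3 libraries in doubt. They were Nefh (0.72), Thy1 (0.33), Prph and Sncg. Nefh, the heavy neurofilament of large axons, was at 116, 115, 157 and 165 CPM in Ptch 1 to 4, against 207, 239 and 237 CPM in AKP 1 to 3. In the presynaptic list Vamp1, a release SNARE, rose (0.54, corrected 0.68) and Bsn, a giant scaffold of the active zone, fell (-0.48, corrected -0.09), with 0 without Ptch 2, 2 without AKP 1 and 9 without the 3 libraries in doubt for genes that fell. Of 29 potassium channel genes 4 fell (median -0.202, corrected -0.02), with 1 without Ptch 2, 8 without AKP 1 and 16 without the 3 libraries in doubt. Among them were Kcnh1 (-0.72) and Kcnk9 (-0.61). Among 21 postsynaptic scaffold genes Shank1 (-0.39) and Dlgap3 (-0.296) fell, with 0 without Ptch 2, 7 without AKP 1 and 12 without the 3 libraries in doubt. Without AKP 2 or AKP 3 the immature neuron, neurofilament and postsynaptic counts were 0. The potassium channel count was 0 without AKP 2 and 1 without AKP 3. None of 22 glutamate and GABA receptor, 17 immediate early or 18 interferon and MHC genes passed by edgeR, while 2, 5 and 3 had an unadjusted p below 0.05 and 2, 4 and 2 passed by DESeq2. Chga, a granule protein of secretory neurons, rose (0.36), and the adhesion gene Ncam2 was at 5.29, 3.51, 5.61 and 6.88 CPM in Ptch 1 to 4, against 5.998, 2.97 and 4.25 CPM in AKP 1 to 3 (log2 fold change -0.27, SE 0.299, adjusted p = 0.617).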

How the data were processed

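Polyadenylated RNA was sequenced after an unstranded TruSeq preparation, per the labels' protocols. Trim Galore, STAR, RSEM and GRCm38 are named, per the submitters' processing notes, with no version in the sources used here. The authors deposited RSEM expected counts (estimated counts) per gene symbol that were whole numbers already, and near-identical genes share such estimates. The 7 libraries were fitted alone in edgeR 4.0.16 under R 4.3.3, with TMM scaling, robust quasi-likelihood F tests, no covariate and Benjamini-Hochberg adjustment over 15508 genes. SE is the log2 fold change over the square root of F, without sign. Coordinates and promoters came from RefSeq on GRCm38.p6 (39754 of 39769 symbols matched) and transcript lengths from GENCODE vM21. The corrected values used lowess trends (span 0.3) of log2 CPM (prior count 1) in each library as offsets. Alternatives included DESeq2 1.42.0. The tests were also run on simulated counts with independent libraries and the same spread for all genes. Those counts lacked the library pairs and the length trend seen here, so that run checks the code and not the calls.

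The groups, the 56 gene lists and the rule for named genes were chosen with earlier results of these data known. The rule took Kmt2d, Ptch1, Atoh1, Gli1, Mki67, Ncam2 and Kdm1a. It took the 10 largest rises, 10 largest falls and 10 smallest p among called genes whose groups do not overlap, whose mean count reaches 100 and whose symbol is no clone or predicted name. From each list it took the first 2 genes, the 4 of smallest p and up to 3 against the majority. It also took the 6 extremes in each direction of AKP 1 against AKP 2 and 3 and of Ptch 1 and 2 against Ptch 3 and 4. Any other gene named was chosen after its values were seen, and some genes under the rule are not reported here.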

Additional observations from a re-analysis of the deposited data

Results flagged for a closer look

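Among the 4 Ptch libraries, 1 library stood apart from the other 3 by Dixon's test at the 95% level in 5 of the 135 genes given with a fold change. Chance flags about 1 in 20 groups. They were Brpf3 (23.6 CPM in Ptch 4), Jmjd1c (64.9 CPM in Ptch 2), Kmt2c (63.1 CPM in Ptch 4), Sncg (7.08 CPM in Ptch 2) and Tnrc6c (42.8 CPM in Ptch 3). No explanation was tested.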

How the results depend on the processing

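The number of calls rested on few libraries. Leaving out Ptch 1 and Ptch 2, with or without AKP 1, was chosen after seeing the data. The 3 libraries in doubt were picked by SHH medulloblastoma genes, Gli1 among them. Mki67 was likewise lowest in AKP 1 and highest in Ptch 1 and Ptch 2. The signs of Gli1 and Mki67 without these libraries thus follow in part from that choice. In the order of all calls (higher, lower), nuclear OXPHOS genes higher and chromatin genes lower, the values 1195 (718, 477), 68 and 31 became 2193 (1207 higher, 986 lower), 73 and 40 by DESeq2, 3 (3 higher, 0 lower), 0 and 0 with the sex label as a covariate, and 4479 (2198 higher, 2281 lower), 75 and 53 in the libraries labelled 4 months, where AKP 3 is the only AKP library and is assumed to vary like the Ptch pair. They became 49 (37 higher, 12 lower), 6 and 0 with length and GC trends removed, 3 (3 higher, 0 lower), 0 and 0 without Ptch 1 and Ptch 2, and 4141 (2141 higher, 2000 lower), 68 and 40 without these and AKP 1, where 4 libraries remain. Those 4 are the closest pair of each group, so only the spread within pairs enters that last fit. All 5 values were 0 in the libraries labelled 2 months and without the 3 libraries against their sex label, where 2230 and 1457 genes had an unadjusted p below 0.05. With the replicate block all 5 were 0 too, with a smallest adjusted p of 0.11 and 2878 genes at an unadjusted p below 0.05, though the numbers do not pair the libraries (correlations of deviations from the group means of same-numbered libraries -0.34, 0.34 and -0.18, pooled over genes). With 1 library left out the ranges were: all calls 6 to 1829, higher 5 to 1014, lower 1 to 815, nuclear OXPHOS genes 0 to 65, chromatin genes 0 to 28. RLE and upper quartile scaling, no filter or a minimum of 50 counts, the fit of all 10 libraries and age as a covariate kept each of the 5 counts within 1.5 times. The cause of these moves was not tested. The sex label went against Xist and Y-linked levels in Ptch 1, Ptch 3 and AKP 3, so the covariate did not adjust for expressed sex. All 1195 calls kept their direction in every alternative that tested them except the length and GC correction, under which 1182 kept it. Of the genes given with a fold change, these changed sign: without AKP 1, Ptch 1 and Ptch 2 Gli1 had 0.21, Kdm1a had 0.28 and Mki67 had 0.64, in the libraries labelled 2 months Kdm1a had 0.0549, without Ptch 1 and Ptch 2 Kdm1a had 0.11 and Mki67 had 0.0737, with 1 library left out Kdm1a ranged from -0.28 to 0.0148.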
